A study of Mus musculus with 16 samples.

Results

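Integrins, syndecans and the receptors that work beside them were followed through a mouse study of c-Jun in embryonic stem cells and in fibroblasts undergoing reprogramming. The set holds 34 genes taken by symbol as a family list, chosen with earlier results of these data known. It comprises 16 integrin alpha subunits, 8 integrin beta subunits, 4 syndecans, the hyaluronan receptor Cd44, the tetraspanins Cd9 and Cd151, the thrombospondin receptor Cd47, and the cytoplasmic partners Ilk and Ptk2. All 34 were found among the 19679 gene names that the RNA libraries have in common.

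Integrins are receptors made of an alpha and a beta chain that hold cells to the extracellular matrix or to each other. The alpha chain largely sets the ligand, such as collagen, laminin, fibronectin or vitronectin, and the beta chain links to the actin cytoskeleton through talin, kindlin, integrin-linked kinase and focal adhesion kinase. Syndecans carry heparan sulfate chains and act as co-receptors for matrix and growth factors, while tetraspanins organise integrins in the membrane. Fibroblasts spread on matrix through these receptors, and mouse embryonic stem cells grow as compact colonies held together mainly by E-cadherin.

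RNA was sequenced from 13 cultures of OG2 cells, which carry an Oct4-driven reporter transgene on a mixed 129SVJ, C57B6 and CBA background, with 1 library per group. The embryonic stem cells (ESC, passage 5) were a line with doxycycline-inducible c-Jun given doxycycline for 36 h, the same line without doxycycline, and wild-type (WT) ESC. The embryonic fibroblasts (MEF, passage 2) over-expressed c-Jun, c-JunDN (a dominant-negative c-Jun), the AP-1 family member Jdp2, Oct4 or DR, or were WT, and what DR stands for is not given in the labels. A further 4 cultures were MEF transfected with KSM plus Oct4, c-JunDN, Jdp2 or DR and harvested on day 3, where KSM is a mixture that the labels do not spell out. The genes of the supplied factors went with the labels. Jun stood at 2173 CPM in induced and 23.2 CPM in uninduced ESC, and at 12870, 4199 and 94.4 CPM in MEF given c-Jun, c-JunDN and DR. Jdp2 stood at 7735 CPM in Jdp2 MEF and 82.1 CPM in DR MEF, and Pou5f1, which encodes Oct4, at 10370 and 2.58 CPM in Oct4 and DR MEF. Klf4, Sox2 and Myc stood at 880.5, 635 and 925 CPM in KSM with DR, against 128, 3.61 and 32 CPM in DR MEF. Whether the inducible ESC line is a single clone, and how many animals gave the MEF, are not stated.

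CPM here are the authors' expected counts after TMM scaling to library depth, used for 1 gene across libraries, and TPM are used to compare genes with each other. Expected counts on the shared genes summed to between 1836095 and 3106995 in 11 libraries, to 11266376 in WT ESC and to 20727477 in WT MEF. A gene counts as measured in a comparison where either library holds at least 5 CPM, and as higher or lower from a 2-fold ratio on. Since each group is 1 library, every difference is between 2 libraries, lacks a replicate check and carries no p-value, and the 95% intervals cover counting error only. In bulk RNA, fewer cells of a type and less RNA per cell cannot be told apart.

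Of the 34 genes, 13 reached 5 CPM in every library, 17 in some and 4 in none. The 13 were Itga5, Itga6, Itgav, Itgb1, Itgb5, Sdc1, Sdc2, Sdc4, Cd9, Cd151, Cd47, Ilk and Ptk2. The 4 below 5 CPM throughout were Itgae and Itgax, alpha subunits of leukocytes, and Itgb6 and Itgb8, partners of Itgav. Itgae reached 4.94 CPM in uninduced ESC, Itgb8 4.81 CPM in Jdp2 MEF, Itgb6 1.83 CPM in induced ESC and Itgax 1.6 CPM in Oct4 MEF, and none of the 4 is called in any comparison below.

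Levels per length were ruled by few genes. Itgb1, the beta chain shared by most matrix-binding integrins, held between 63.3 and 86.9% of the TPM of the 8 beta genes in each of the 13 libraries. Itgb5 supplied most of the TPM of Itgb3, Itgb5, Itgb6 and Itgb8, the other partners of Itgav, and ran from 32.4 TPM in KSM with c-JunDN to 401.5 TPM in WT MEF. The tetraspanin Cd9 was the tallest of all 34 in induced ESC, at 1147 TPM, and Itgb1 was the tallest in WT MEF, at 2236 TPM. The 34 genes together summed to 3390, 601.1 and 1401 TPM in induced, uninduced and WT ESC. They summed to between 2732 (Jdp2) and 5961 TPM (WT) in MEF and to between 1390 (Oct4) and 1961 TPM (DR) with KSM. WT MEF held the highest CPM of 13 of the genes.

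**Figure D1:**
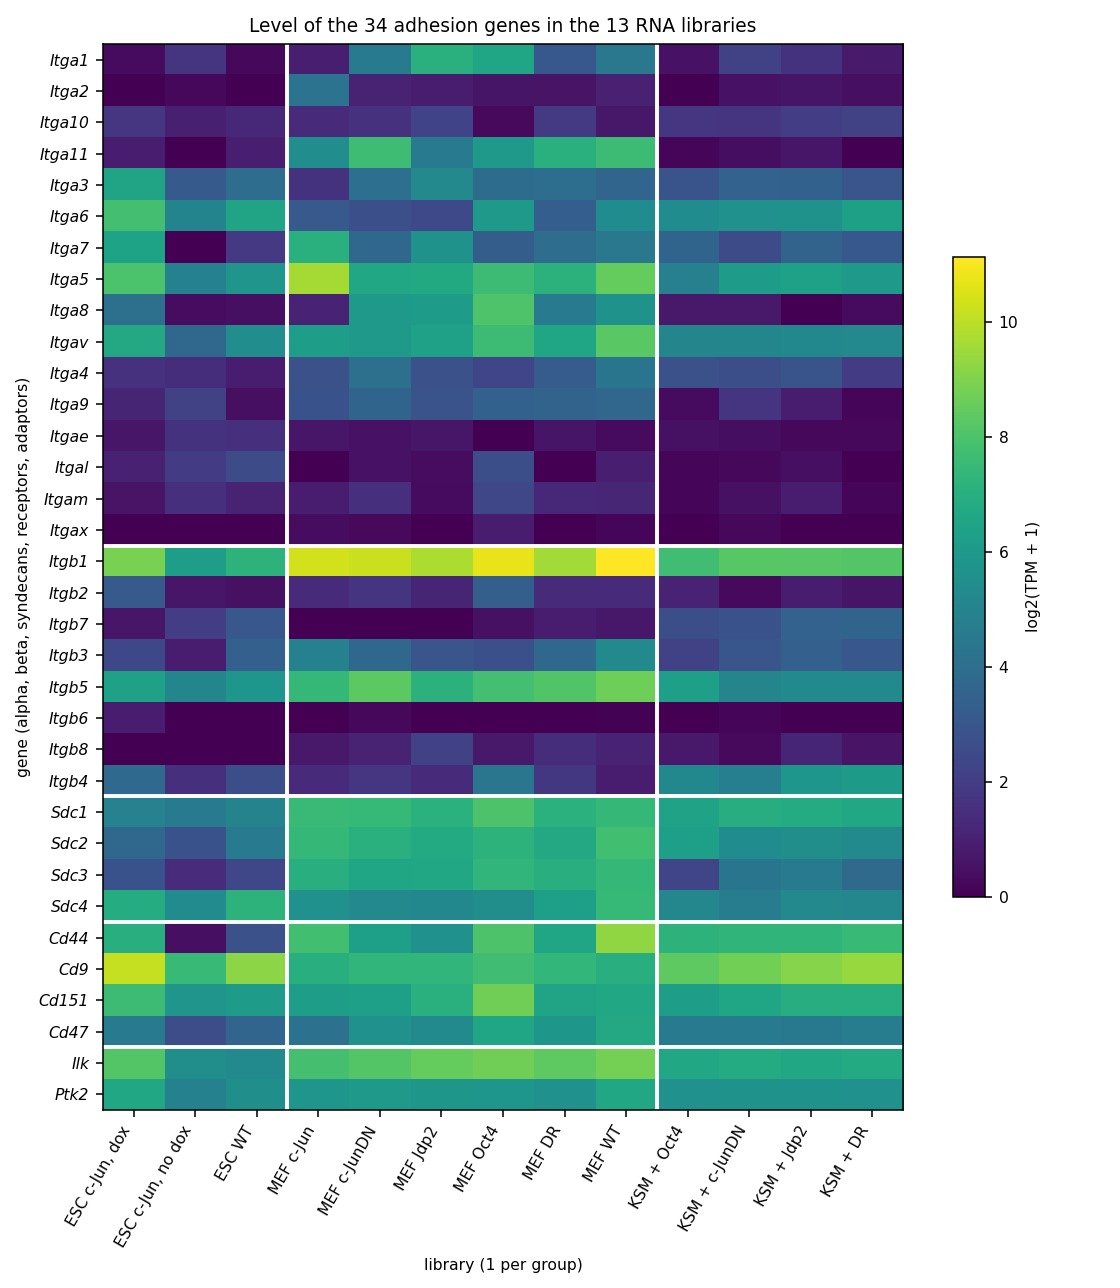
Level of each of the 34 adhesion genes (rows, by role) in each of the 13 RNA libraries (columns, 1 library per group) as log2 of TPM plus 1. Itgb1 is bright in every column and brightest in WT MEF (2236 TPM), Itga11 is bright in MEF only among these libraries (23.9 to 203.5 TPM, under 1 TPM elsewhere), and Cd9 is brightest in induced ESC (1147 TPM).

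Fibroblasts and stem cells carried different integrins even before any factor was added. In WT MEF against WT ESC, 17 of the 26 measured genes were higher and 5 lower, where 24.1% of all measured genes were higher and 29.9% lower. The median log2 ratio was 2.65 over the measured members and -0.21 over all measured genes. Of the 26, 18 reached 5 CPM in both libraries, 5 only in WT MEF and 3 only in WT ESC. Itga11, Itga8, Itga1, Itga9, Itga4, Itgb7, Itgb4 and Itgal passed through 1 library only, so they had to differ. Itga11, a receptor for fibrillar collagen, stood at 492.9 CPM in WT MEF and 2.52 CPM in WT ESC, a 195.6-fold difference (95% interval 133.4 to 299.6). Cd44 stood at 1389 and 14.1 CPM, Itga8, a receptor for nephronectin, at 143.1 and 1.26 CPM, and Itga1, a collagen and laminin receptor, at 62.9 and 0.582 CPM, all in WT MEF and WT ESC. These are ratios of 98.8 (83.9 to 117.2), 113.6 (66.3 to 213.6) and 108.1 (49.5 to 295.4). Sdc3 stood at 415.8 CPM in WT MEF and 11.4 CPM in WT ESC (36.4-fold, 30.3 to 44), and Itga9, which binds tenascin C, at 40.6 and 1.45 CPM (27.9-fold, 16.8 to 50.2). The other genes higher in WT MEF were Itga4, Itgb1, Ilk, Sdc2, Cd47, Itgav, Itgb5, Itga7, Itga5, Sdc1 and Itgb3. The 5 lower in WT MEF were Itgb7, Itgb4, Cd9, Itgal and Itga6, the laminin receptor pair Itga6 and Itgb4 among them, and Itga3 (28.1 CPM in WT MEF and 40.3 CPM in WT ESC) was within 2-fold. Scaling by total counts left the members at 17 and 5, while the share of higher among all called genes was 34.5% under it and 44.6% as reported.

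ESC with induced c-Jun held more transcript of most adhesion genes than the uninduced line, a comparison meant to show what c-Jun does as ESC differentiate. Of the 27 measured members 18 were higher and 4 lower with doxycycline, where 21.5% of all measured genes were higher and 19.3% lower. The median log2 ratio was 1.56 over the measured members and -0.08 over all measured genes. Of the 27, 16 reached 5 CPM in both libraries, 7 only with doxycycline and 4 only without it, and a member that passed through 1 library had to differ.

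All 3 laminin-binding alpha genes were higher in induced ESC. Itga7, known as a receptor of muscle, had 158.2 CPM in induced ESC and no count in uninduced ESC, at least 106.8-fold higher against a floor of 3 counts in the uninduced library. Itga3, an epithelial laminin receptor, stood at 198.4 CPM in induced and 23.2 CPM in uninduced ESC (8.55-fold, 95% interval 6.34 to 11.8). Itga6 was 5.31-fold higher (4.51 to 6.3), at 425.3 and 80.0 CPM in induced and uninduced ESC. The Itga6 partner Itgb4 stood at 36.2 CPM in induced and 6.92 CPM in uninduced ESC.

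The receptors for fibronectin, vitronectin and related ligands followed. Itga5, the fibronectin receptor, stood at 509 CPM in induced and 74.6 CPM in uninduced ESC (6.82-fold, 5.77 to 8.13). Itgav, whose dimers bind vitronectin and latent TGF-beta, stood at 334 and 53.4 CPM (6.26-fold, 5.12 to 7.71), and Itga8 at 42.8 and 0.988 CPM (43.3-fold, 11.7 to 361.5), in induced and uninduced ESC. The Itga8 ratio rests on 2 counts in the uninduced library. Itgb1 was 4.82-fold higher (4.33 to 5.39), at 900.7 CPM in induced and 186.7 CPM in uninduced ESC.

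Cd44, the hyaluronan receptor, stood at 259.1 CPM in induced ESC and 0.988 CPM in uninduced ESC. The ratio of 262.2 (72.3 to 2169) rests on 2 uninduced counts. Itgb2, the beta chain of leukocyte integrins, stood at 9.87 and 0.988 CPM in induced and uninduced ESC, also from 2 uninduced counts. The scaffold Ilk (225.8 and 46.9 CPM) and the kinase Ptk2 (202.8 and 76.6 CPM) were higher in induced than in uninduced ESC. So were Cd9 (626.3 and 133.9 CPM), Cd151 (161.9 and 56.3 CPM), Cd47, Itgb3, Sdc3 and Sdc4.

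The 4 lower genes were low in both libraries. Itga1 had 2 counts in induced and 17 in uninduced ESC, and Itgam, Itga9 and Itgal stood at 1.1, 4.02 and 1.83 CPM in induced against 5.43, 14.3 and 6.92 CPM in uninduced ESC. Itga10, Itga4, Itgb5, Sdc1 and Sdc2 stayed within 2-fold. Measured in TPM, 18 members were higher and none lower, since none of these 4 reached 5 TPM, and 72.9% of all called genes were higher against 52.7% as reported.

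The uninduced line itself stood below WT ESC, and WT ESC as the control shortened the list. Against WT ESC 10 of 25 measured members were higher in induced ESC and 4 lower, where 14.7% of all measured genes were higher and 23.2% lower. All 10 were also higher against the uninduced line, and they were Itga3, Itga5, Itga6, Itga7, Itga8, Itgb1, Itgb2, Cd44, Cd151 and Ilk. Itga7 was 26.8-fold higher (20.4 to 35.6) and Cd44 18.4-fold higher (15.4 to 22.2) in induced than in WT ESC. Itgb3, a partner of Itgav that platelets carry with another alpha chain, differed in opposite directions from the controls. Its 11.3 CPM in induced ESC lay between 2.96 CPM in the uninduced line and 31.7 CPM in WT ESC. Itgb7, Itgal and Sdc2 were the other 3 lower in induced than in WT ESC.

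**Figure D2:**
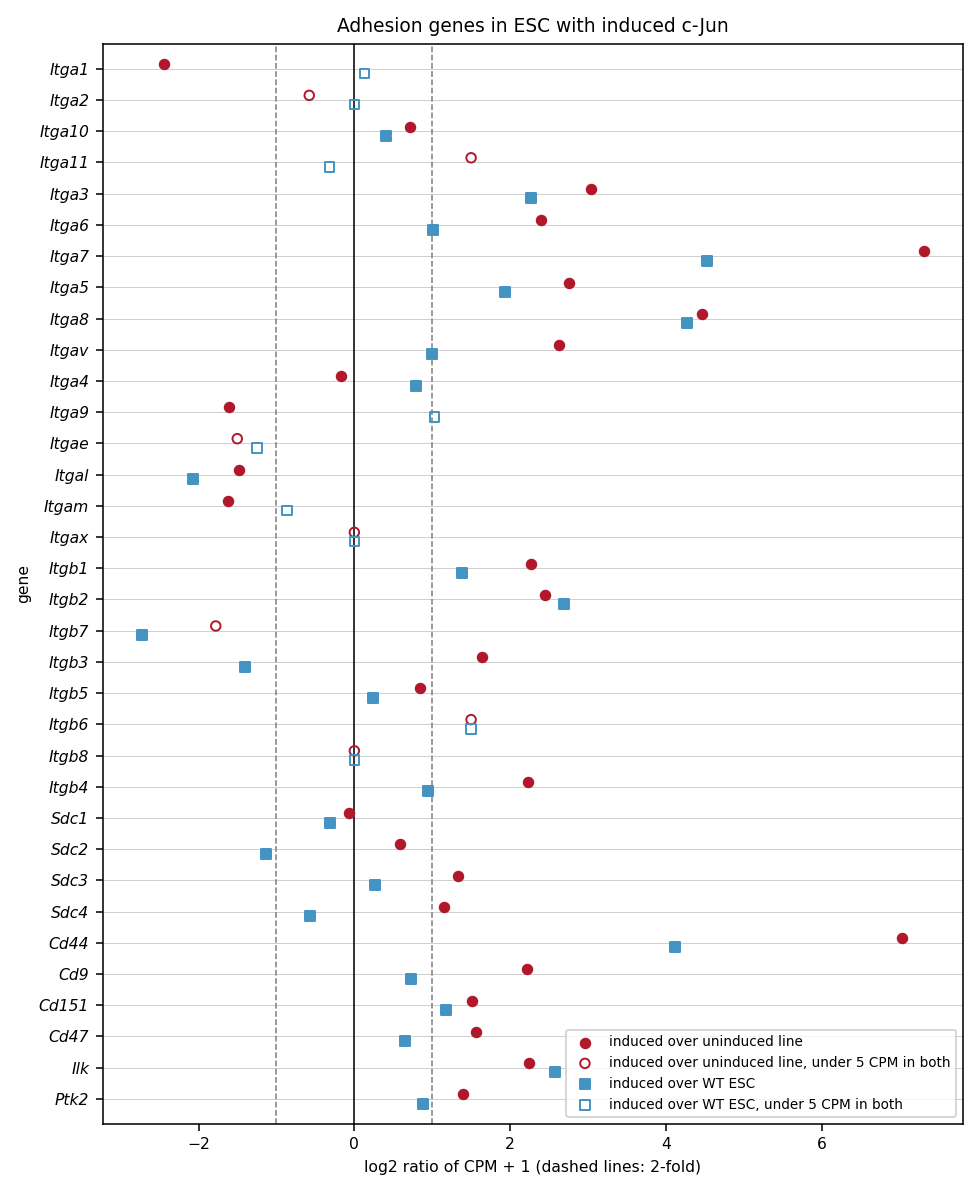
Log2 ratio of CPM plus 1 for each adhesion gene in ESC with induced c-Jun, over the uninduced line (red circles) and over WT ESC (blue squares), with open symbols under 5 CPM in both libraries and dashed lines at 2-fold. Itga7, Cd44 and Itga8 lie far to the right with either control, and Itgb3 lies right of 0 with the first and left of 0 with the second.

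The uninduced line was set against WT ESC directly, to show what the ESC ratios start from. There 2 of 25 measured members were higher and 10 lower in the uninduced line, where 6.29% of all measured genes were higher and 18.4% lower. Of the 25, 16 reached 5 CPM in both libraries, 4 only in the uninduced line and 5 only in WT ESC. A member that passed through 1 library had to differ, and among the called members Itgb3, Cd44, Itga7, Sdc3, Itga9 and Itga1 are such. Itgb3 stood at 2.96 CPM in the uninduced line and 31.7 CPM in WT ESC (10.7-fold lower, 4.86 to 29.4). Cd44 had 2 and 145 counts, or 0.988 and 14.1 CPM (14.2-fold lower, 3.87 to 118.6), and Itga7 had 0 and 61 counts (at least 3.99-fold lower). Sdc2 stood at 11.9 CPM in the uninduced line and 41.3 CPM in WT ESC (3.48-fold lower, 2.31 to 5.5), and Itgav, Cd9, Itga6, Itgb4, Sdc3 and Sdc4 were also lower in the uninduced line. Itga9 (14.3 and 1.45 CPM, 9.85-fold, 5.11 to 19.8) and Itga1 (8.4 and 0.582 CPM, 14.4-fold, 5.43 to 44.7) were higher in the uninduced line than in WT ESC. With median-of-ratios scaling 3 members were higher and 9 lower, and 36.6% of all called genes were higher against 25.4% as reported. Measured in TPM, no member was higher and 9 were lower.

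Markers of other cell types differed between these 3 libraries. The 10 fibroblast markers summed to 560.5 CPM in induced ESC, 27.7 CPM in uninduced ESC and 1372 CPM in WT ESC. Col1a1 alone gave 507.5 CPM of the sum in induced ESC, and Lum was at 0 there. Of the 16 macrophage markers found in the files 10 were at 0 in induced ESC and 12 in uninduced ESC, Ptprc and Tyrobp among them. The list summed to 229.5, 58.8 and 151.1 CPM in induced, uninduced and WT ESC. Most of the sum in induced ESC came from Laptm5, Csf1r and Cd68. Laptm5 stood at 103.8, 42 and 110.2 CPM, Csf1r at 80.4, 0 and 1.65 CPM and Cd68 at 39.1, 12.35 and 6.59 CPM, in induced, uninduced and WT ESC. The 8 skeletal muscle markers summed to 243.7, 8.4 and 18.7 CPM in the same order, of which Des gave 228 CPM in induced ESC, while Myod1, Myog, Myf5 and Pax7 were at 0. The part of any of these in the Itga7, Itgb2 or Cd44 values was not tested. The 10 ESC markers summed to 1346 CPM in induced ESC, against 7373 CPM in uninduced and 5897 CPM in WT ESC.

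Adaptors that bind integrin tails and other tetraspanins were mostly higher in induced than in uninduced ESC, and ligands were mixed. Of 25 measured genes of the integrin adhesome, a list of 27 adaptors and kinases such as talin, vinculin and paxillin, 17 were higher and 1 lower than in uninduced ESC, with a median log2 ratio of 1.5. Tns1, a tensin that binds beta tails, stood at 131.9 CPM in induced and 15.8 CPM in uninduced ESC. Parva, a partner of Ilk, stood at 54.1 and 6.42 CPM, and Actn1, an actin cross-linker, at 1614 and 245.5 CPM. WT ESC lay above the uninduced line for these genes, with Tns1 at 73.2 CPM, Parva at 23.4 CPM and Actn1 at 378.3 CPM, and against WT ESC 10 of 26 adhesome genes were higher and 2 lower in induced ESC. Of 13 measured ligands and counter-receptors 6 were higher and 2 lower, and the Itga8 ligand Npnt stood at 89.2 CPM in induced and 6.42 CPM in uninduced ESC. Cyr61 stood at 284.3, 28.65 and 195.7 CPM in induced, uninduced and WT ESC. The 2 lower were Spp1, which encodes osteopontin, at 79.7 and 382.9 CPM, and the fibronectin gene Fn1, named after its values were seen, at 642.4 and 1712 CPM, in induced and uninduced ESC. Against WT ESC 2 of 13 ligands and counter-receptors were higher and 8 lower in induced ESC. Of 8 other tetraspanins measured 6 were higher and 1 lower, led by Cd82 at 41.7 and 0.494 CPM and Tspan9 at 1011 and 42 CPM in induced and uninduced ESC.

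Promoter sequence is shown for the 2 called members of the induced ESC comparison that hold the pattern TGANTCA. This is a loose form of the AP-1 core that c-Jun dimers are known to bind. It allows any middle base, where the usual core has C or G. The windows run from 250 bases before to 50 bases after the start, from RefSeq on GRCm38.p6, which is not the build of the counts. Windows were found for 25 of the 34 genes, 30 windows in all. The loose pattern reads the same on both strands. It stood in the windows of 3 members, Itga3, Itga9 and Itgax, and in 7.81% of 32851 windows of all genes. The match is TGAATCA in Itga3, TGACTCA in Itga9 and TGAGTCA in Itgax, so the Itga3 match is not the usual core. Itga3 has another window, at another start (chr11:95076665-95076964, minus strand), and that one lacks the pattern. Capitals mark the match. It begins 12 bases after the start in the Itga3 window shown (chr11:95069149-95069448, minus strand) and 38 bases after it in Itga9 (chr9:118711442-118711741, plus strand).
Itga3: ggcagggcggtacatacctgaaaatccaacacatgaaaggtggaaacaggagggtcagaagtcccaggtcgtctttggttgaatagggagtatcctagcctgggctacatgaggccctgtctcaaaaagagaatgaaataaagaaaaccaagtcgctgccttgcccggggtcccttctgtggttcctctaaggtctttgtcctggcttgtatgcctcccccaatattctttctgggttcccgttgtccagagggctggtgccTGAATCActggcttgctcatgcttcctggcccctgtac
Itga9: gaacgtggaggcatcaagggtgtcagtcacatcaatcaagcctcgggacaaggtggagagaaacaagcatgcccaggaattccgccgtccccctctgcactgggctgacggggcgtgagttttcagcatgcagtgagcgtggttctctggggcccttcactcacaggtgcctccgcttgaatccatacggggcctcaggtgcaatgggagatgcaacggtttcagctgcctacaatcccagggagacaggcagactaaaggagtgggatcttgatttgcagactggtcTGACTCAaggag
Itga3 was higher and Itga9 lower in induced than in uninduced ESC, so these 2 windows go with opposite directions. A match is a description of the letters and not a binding site, and whether c-Jun binds there was not tested.

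In MEF, where the study asked how c-Jun holds back reprogramming, c-Jun went with gains of some alpha subunits and losses of others. The comparisons of c-Jun, c-JunDN, Jdp2 and Oct4 all share the 1 DR library, and those of c-JunDN and of Jdp2 each had 24 of 25 measured members at 5 CPM in both libraries. With c-Jun 5 of 26 measured members were higher than in DR MEF and 5 lower, where 8.33% of all measured genes were higher and 9.64% lower. The median log2 ratio was -0.34 over the measured members and 0.01 over all measured genes. Of the 26, 20 reached 5 CPM in both libraries, 1 only with c-Jun and 5 only with DR. Among the called members Itga2, Itga8, Itga3 and Itga1 passed through 1 library only, so they had to differ.

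Itga5 led the alpha genes per length in c-Jun MEF as in DR MEF, with a larger share. It stood at 1659 CPM in c-Jun MEF and 300.9 CPM in DR MEF (5.51-fold, 5.04 to 6.03), and made up 72.6% of the alpha TPM in c-Jun MEF against 30.8% in DR MEF. Itga7 stood at 259.2 and 28.4 CPM in c-Jun and DR MEF (9.13-fold, 6.9 to 12.3). Itga2, a collagen receptor of platelets and epithelia, stood at 36.6 CPM in c-Jun MEF from 68 counts and at 1.03 CPM in DR MEF from 2 counts (35.4-fold, 9.44 to 298.5). Itga2 reached 5 CPM in no other of the 13 libraries. The 6 megakaryocyte markers summed to 16.7 CPM in c-Jun MEF and 18.1 CPM in DR MEF, and the 6 keratinocyte markers to 8.61 and 2.58 CPM.

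Other alpha genes were lower with c-Jun. Itga8 had 6 counts in c-Jun MEF and 120 in DR MEF, or 3.23 and 61.9 CPM (19.2-fold lower, 8.56 to 53.3). Itga3 stood at 4.84 and 35.1 CPM in c-Jun and DR MEF (7.25-fold lower, 3.6 to 16.5), and Itga1 at 2.69 and 21.2 CPM (7.87-fold lower, 3.11 to 25.5). Itga11 was 3.08-fold lower and Cd47 3.41-fold lower in c-Jun MEF. Cd44 (465.8 and 195.1 CPM) and Itgb3 (80.1 and 34.6 CPM) were higher in c-Jun than in DR MEF. The remaining 16 measured members, all 4 syndecans, Itgb1, Itgb5, Ilk and Ptk2 among them, stayed within 2-fold.

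WT MEF as the control kept 8 of the 10 calls. Itga2, Itga5 and Itga7 were higher and Itga1, Itga3, Itga8, Itga11 and Cd47 lower in c-Jun MEF against both DR and WT MEF. Against WT MEF 3 of 24 measured members were higher and 11 lower in c-Jun MEF, where 11.2% of all measured genes were higher and 13.6% lower. Cd44 turned round, at 465.8 CPM in c-Jun MEF and 1389 CPM in WT MEF, and Itgb3 (80.1 and 108.3 CPM) was within 2-fold. The 10 fibroblast markers summed to 16090 CPM in c-Jun MEF, 33740 CPM with c-JunDN, 33090 CPM with Jdp2, 17100 CPM with Oct4, 34280 CPM with DR and 59430 CPM in WT MEF, none of them at 0. Their part in the MEF values was not tested.

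Of 18 measured ligands and counter-receptors 2 were higher, 6 lower and 10 within 2-fold in c-Jun MEF against DR MEF, with a median log2 ratio of -0.28. Nov, a matricellular integrin ligand, stood at 10.2 CPM in c-Jun MEF and 246.7 CPM in DR MEF, and Vcam1, the counter-receptor of Itga4 dimers, at 9.68 and 216.2 CPM. Ptn stood at 76.4 and 1652 CPM. Of 25 measured adhesome genes 2 were higher and 3 lower, and the focal adhesion kinase relative Ptk2b led at 96.8 CPM in c-Jun and 16.5 CPM in DR MEF. Of 8 other tetraspanins none was higher and 4 were lower in c-Jun MEF.

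With c-JunDN few members left the level of DR MEF. Of 25 measured members 2 were higher and 1 lower, where 3.25% of all measured genes were higher and 2.84% lower. Itga1 stood at 63.8 CPM in c-JunDN MEF and 21.2 CPM in DR MEF (3.02-fold, 2.12 to 4.38). Itga8 stood at 174.1 and 61.9 CPM (2.81-fold, 2.29 to 3.48), and Sdc4, a syndecan of focal adhesions, at 42.5 and 90.3 CPM (2.12-fold lower, 1.65 to 2.75), in c-JunDN and DR MEF. With WT MEF as the control Itga1 stood at 62.9 CPM and Itga8 at 143.1 CPM, so both were within 2-fold of it, and Sdc4 was lower against both controls. Against WT MEF 1 of 24 members was higher and 7 were lower in c-JunDN MEF, where 10.3% of all measured genes were higher and 11.4% lower. Of 25 adhesome genes 2 were higher and none lower than in DR MEF, Ptk2b and Tns3. Of 17 ligands and counter-receptors 2 were higher and 3 lower than in DR MEF.

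Set directly against c-JunDN, c-Jun went with alpha genes that differed by up to 54-fold. Of 25 measured members 5 were higher and 6 lower in c-Jun MEF than in c-JunDN MEF, where 8.39% of all measured genes were higher and 10.0% lower. Of the 25, 20 reached 5 CPM in both libraries, 1 only with c-Jun and 4 only with c-JunDN. A member that passed through 1 library had to differ, and Itga8, Itga1, Itga3 and Itga2 are such members. Itga8 had 3.23 CPM under c-Jun and 174.1 CPM under c-JunDN (54-fold lower, 24.6 to 147.9), and Itga1 at 2.69 and 63.8 CPM (23.7-fold lower, 9.94 to 74.2). Itga2 stood at 36.6 and 2.17 CPM (16.9-fold, 6.88 to 53.6), Itga7 at 259.2 and 23.4 CPM (11.1-fold, 8.34 to 14.9) and Itga5 at 1659 and 209.2 CPM (7.93-fold, 7.2 to 8.74), under c-Jun and c-JunDN. Itga3 stood at 4.84 and 36 CPM (7.44-fold lower, 3.74 to 16.9). Itga11, Itga4 and Cd47 were also lower and Cd44 and Itgb3 higher in the c-Jun library.

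With Jdp2 the leading collagen receptor was another one than with DR. Of 25 measured members 4 were higher and 4 lower than in DR MEF, where 5.91% of all measured genes were higher and 6.48% lower. Itga1 stood at 362.6 CPM in Jdp2 MEF and 21.2 CPM in DR MEF (17.1-fold, 12.5 to 24.1), its highest level in the 13 libraries. Itga11 stood at 54 and 319.4 CPM in Jdp2 and DR MEF (5.91-fold lower, 4.79 to 7.37). Per length, Itga1 supplied 82.3% of the TPM of the 4 collagen-binding alpha genes in Jdp2 MEF, and Itga11 supplied 92.7% in DR MEF.

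Among the other alpha genes Itga7 (94.7 and 28.4 CPM, 3.33-fold, 2.45 to 4.6), Itga8 (186.7 and 61.9 CPM, 3.01-fold, 2.44 to 3.74) and Itga3 (81.3 and 35.1 CPM, 2.32-fold, 1.73 to 3.13) were higher in Jdp2 than in DR MEF. Sdc4 (39.6 and 90.3 CPM, 2.28-fold lower, 1.73 to 3.04), Itgb5 and Itga6 were lower. Against WT MEF 7 of the 8 calls kept their direction, and Itga8 was within 2-fold. There 4 of 24 measured members were higher and 13 lower in Jdp2 MEF, where 12.0% of all measured genes were higher and 14.6% lower. In TPM, 4 members were higher and 2 lower than in DR MEF. Of 17 ligands and counter-receptors 1 was higher and 8 were lower in Jdp2 MEF, with the Itga9 ligand Tnc at 481.4 CPM in Jdp2 MEF and 3349 CPM in DR MEF. Of 25 adhesome genes 1 was higher and 2 were lower.

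**Figure D3:**
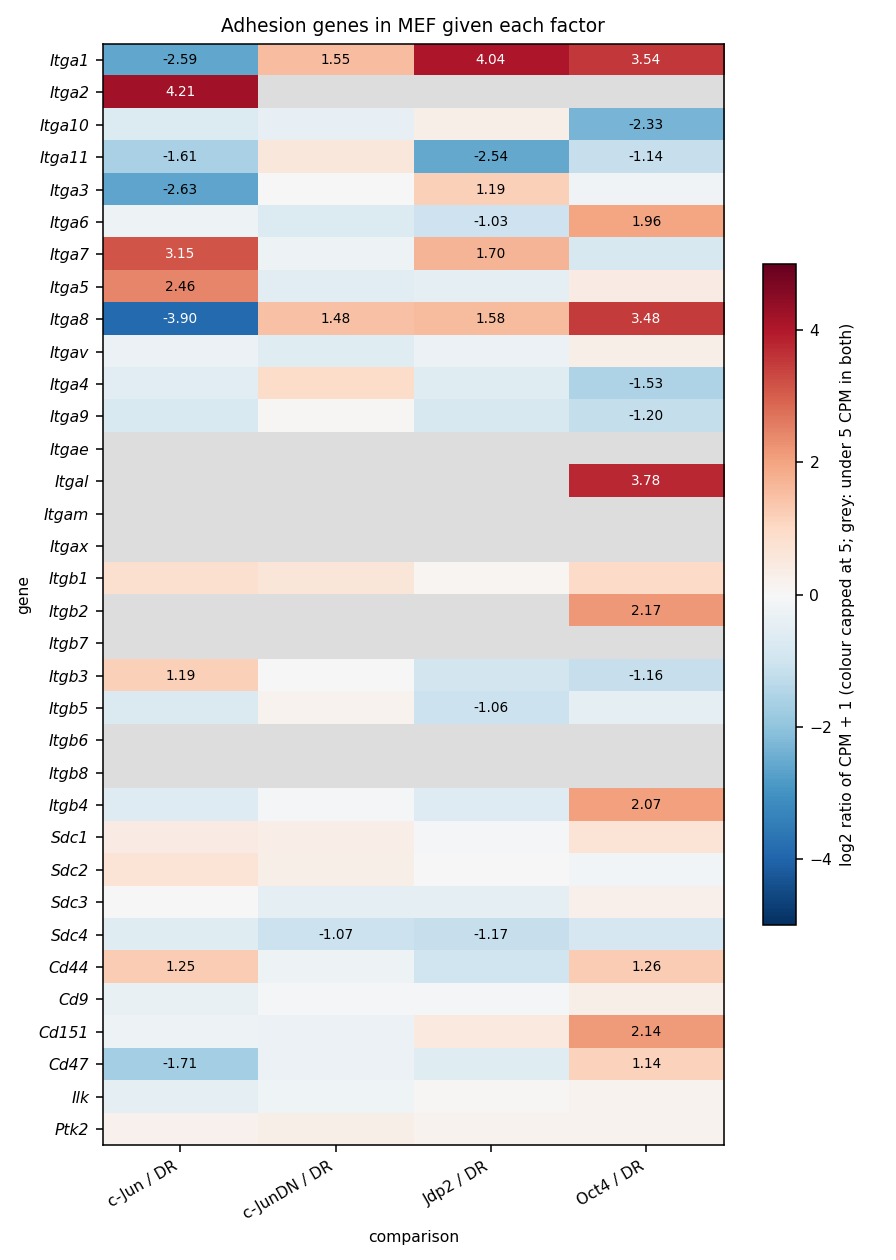
Log2 ratio of CPM plus 1 for each adhesion gene in MEF given c-Jun, c-JunDN, Jdp2 or Oct4, each over the same DR library, with numbers printed where the ratio passes 2-fold and grey where both libraries are under 5 CPM. Itga1 is red in 3 columns and blue with c-Jun, as is Itga8, while Itga11 is blue with c-Jun, Jdp2 and Oct4.

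Oct4 in MEF gave the most calls of the 4 factors. Of 27 measured members 9 were higher and 5 lower than in DR MEF, where 11.6% of all measured genes were higher and 10.3% lower. Of the 27, 24 reached 5 CPM in both libraries, 2 only with Oct4 and 1 only with DR. Itgal, Itgb2 and Itga10 passed through 1 library only, so they had to differ. The authors quantified the Oct4 library on Ensembl genes and the others on RefSeq genes, so gene models differ within each ratio. In TPM, 10 members were higher and 2 lower, and 67.6% of all called genes were higher against 53.0% as reported.

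Itga8 and Itga1 were high with Oct4. Itga8 had 701.7 CPM in Oct4 MEF and 61.9 CPM in DR MEF (11.3-fold, 9.39 to 13.8), its highest level in the 13 libraries and the leading alpha gene of that culture per length. Itga1 stood at 256.6 and 21.2 CPM in Oct4 and DR MEF (12.1-fold, 8.81 to 17.1). Npnt, the ligand of Itga8 dimers, stood at 1803 CPM in Oct4 MEF and 13.9 CPM in DR MEF. So the receptor and its ligand were both higher in Oct4 MEF.

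The laminin receptor pair Itga6 (75.1 and 18.6 CPM) and Itgb4 (33.5 and 7.22 CPM), together with Cd151 (346.6 and 77.9 CPM, 4.45-fold, 3.72 to 5.34), was higher in Oct4 than in DR MEF. Cd44 (467.4 and 195.1 CPM) and Cd47 (118.2 and 53.2 CPM) were higher too. With WT MEF as the control Itgb4 and Cd151 kept the call. Itga6 (88.3 CPM in WT MEF) and Cd47 (98 CPM) were within 2-fold of it, and Cd44 (1389 CPM) was lower in Oct4 MEF. Cd47 had a log2 ratio of 0.67 over DR MEF in TPM.

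The leukocyte integrin genes Itgal and Itgb2 were higher with Oct4, and the other 4, Itgae, Itgam, Itgax and Itgb7, were under 5 CPM in both libraries. Itgal had 24 counts in Oct4 MEF (12.8 CPM) and 0 in DR MEF, at least 8.25-fold higher against a floor of 3 counts in the DR library. Itgb2, its partner, had 24 and 4 counts, or 12.8 and 2.06 CPM (6.19-fold, 2.13 to 24.5). The 16 macrophage markers found in the files summed to 422.2 CPM in Oct4 MEF and 116.6 CPM in DR MEF, none of them at 0 in either. Of 14 measured markers 13 were higher and none lower in Oct4 than in DR MEF, with a median log2 ratio of 2.23. Lyz2 stood at 162.9 and 65 CPM and Ptprc at 8.52 and 2.58 CPM in Oct4 and DR MEF. For comparison, the list summed to 236.2 CPM in c-JunDN MEF, where Itgal and Itgb2 stood at 0.868 and 3.04 CPM, and to 51.4 CPM in Jdp2 MEF. Of 11 markers measured with c-JunDN 6 were higher and none lower than in DR MEF. Of 4 measured with Jdp2 none was higher and 2 were lower. The part of macrophages in the Itgal and Itgb2 values was not tested.

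Lower with Oct4 were Itga10, Itga4, Itga9, Itgb3 and Itga11. Itga10, a collagen receptor of cartilage, had 1 and 13 counts in Oct4 and DR MEF (12.6-fold lower, 1.89 to 535.5), and Itgb3 stood at 14.9 and 34.6 CPM. Itga4, Itga9 and Itga10 lost the call on the TPM scale, with log2 ratios of -0.93 and -0.09 for Itga4 and Itga9, and with Itga10 under 5 TPM in both libraries. Itga10 was also under 5 CPM in both Oct4 and WT MEF (0.532 and 1.63 CPM). Against WT MEF the directions held for Itga1, Itga8, Itgal, Itgb2, Itgb4 and Cd151, which were higher, and for Itga4, Itga9, Itga11 and Itgb3, which were lower in Oct4 MEF. In that comparison 6 of 26 measured members were higher and 10 lower, where 14.6% of all measured genes were higher and 14.8% lower. Of 25 adhesome genes 4 were higher and none lower than in DR MEF, with Zyx at 1772 and 546.5 CPM. Of 17 ligands and counter-receptors 2 were higher and 5 lower.

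**Figure D4:**
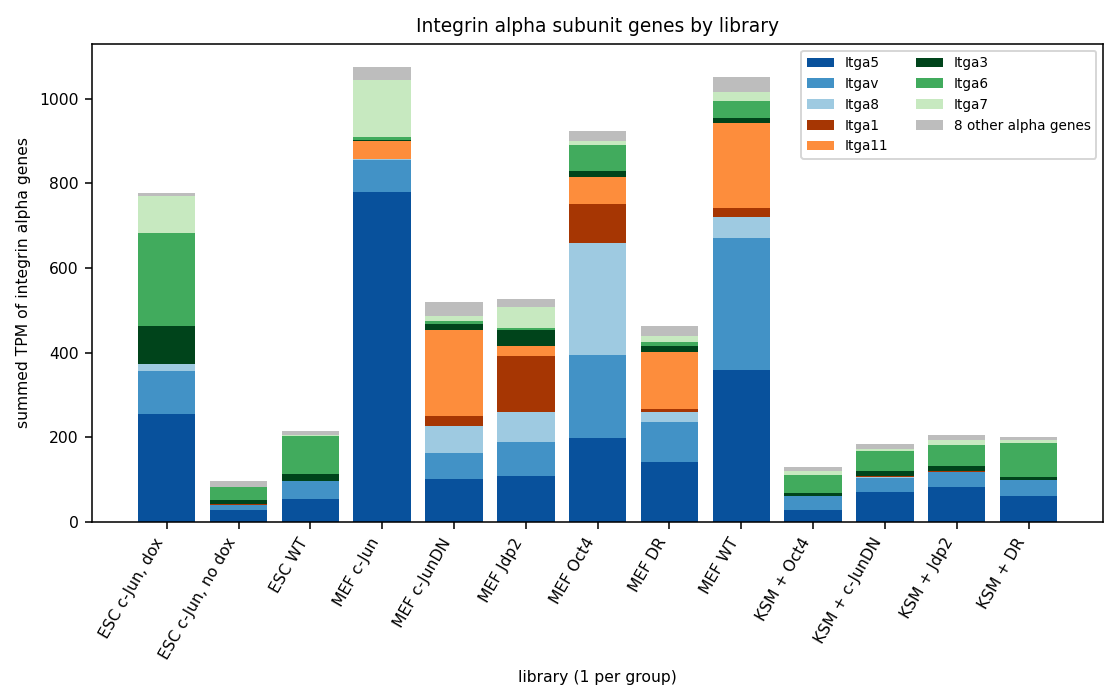
Summed TPM of the 16 integrin alpha genes in each library (1 per group), split into the 8 genes that matter most and the 8 others in grey. Itga5 fills most of the c-Jun MEF bar (780.4 of 1076 TPM), Itga1 is widest in Jdp2 MEF (132.2 TPM), Itga8 in Oct4 MEF (262.8 TPM) and Itga11 in c-JunDN MEF (203.5 TPM).

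The leading alpha gene per length differed among the 4 factors. It was Itga5 in c-Jun MEF (780.4 TPM), Itga11 in c-JunDN MEF (203.5 TPM), Itga1 in Jdp2 MEF (132.2 TPM) and Itga8 in Oct4 MEF (262.8 TPM), and Itga5 in DR (142.8 TPM) and WT MEF (359.7 TPM). Itga11 lay close behind Itga5 in DR MEF, at 134 TPM, and both genes were within 2-fold between c-JunDN and DR MEF. The summed alpha TPM was 1076 with c-Jun, 520.4 with c-JunDN, 526.1 with Jdp2, 924.4 with Oct4, 463.5 with DR and 1051 in WT MEF. The gene models of the Oct4 library differ from the others, and this affects TPM. In CPM the alpha genes summed to 2061 with Oct4 and 1194 with DR, a smaller gap than in TPM. In ESC Itga5 led with doxycycline (254 TPM), and Itga6 led in the uninduced line (31.5 TPM) and in WT ESC (89.7 TPM).

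DR MEF are the control of 4 of these comparisons, and they differed from WT MEF in adhesion genes. In DR MEF 2 of 25 measured members were higher and 12 lower than in WT MEF, where 9.47% of all measured genes were higher and 10.6% lower. Of the 25, 23 reached 5 CPM in both libraries and 2 only in DR MEF. Cd44 stood at 195.1 CPM in DR MEF and 1389 CPM in WT MEF (7.12-fold lower, 6.43 to 7.9). Itga6 stood at 18.6 and 88.3 CPM (4.75-fold lower, 3.42 to 6.82), Itgav at 320.5 and 1101 CPM (3.44-fold lower, 3.17 to 3.73), Itgb3 at 34.6 and 108.3 CPM (3.13-fold lower, 2.45 to 4.06) and Itgb1 at 1543 and 4687 CPM (3.04-fold lower, 2.93 to 3.15), in DR and WT MEF. Itga1, Itga5, Itga8, Itga4, Sdc2, Sdc4 and Ptk2 were lower as well. Itga10 (6.71 and 1.63 CPM, 4.12-fold, 1.94 to 8.37) and Itgb4 (7.22 and 2.41 CPM) were higher in DR than in WT MEF. These are the 2 members at 5 CPM only in DR MEF, so they had to differ. This comparison leaned on the scaling. With total counts 2 members were higher and 6 lower, and 82.9% of all called genes were higher against 47.1% as reported. None was higher and 12 were lower in TPM.

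On day 3 of KSM the fibroblast integrins were low and an epithelial pair was high. In KSM with DR 5 of 26 measured members were higher and 13 lower than in DR MEF, where 18.8% of all measured genes were higher and 20.0% lower. Of the 26, 21 reached 5 CPM in both libraries, 1 only with KSM and 4 only in DR MEF. Itgb7, Itga11, Itga8, Itga9 and Itga1 passed through 1 library only, so they had to differ. Itga11 had 0 counts with KSM and 619 in DR MEF, at least 265.8-fold lower against a floor of 3 counts in the KSM library. Itga8 had 2 and 120 counts (77.3-fold lower, 20.9 to 645.6) and Itga9 had 1 and 69 counts (88.9-fold lower, 15.4 to 3561), in KSM with DR and in DR MEF. Sdc3 stood at 35.7 CPM in KSM with DR and 307.1 CPM in DR MEF (8.61-fold lower, 6.88 to 10.9).

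Itgb4, the beta chain of hemidesmosomes, stood at 209.1 CPM in KSM with DR and 7.22 CPM in DR MEF (28.9-fold, 17.1 to 53.3). Its partner Itga6 stood at 179.9 and 18.6 CPM (9.68-fold, 6.89 to 14), and Itgb7, Cd9 (430.6 and 95 CPM) and Cd44 (424.2 and 195.1 CPM) were higher as well. For Cd44 the direction depends on the control, since WT MEF held 1389 CPM, above KSM with DR. Itga1, Itga4, Itga5, Itgav, Itgb1, Itgb5, Sdc2, Cd47 and Ilk were lower in KSM with DR. The 6 keratinocyte markers summed to 25.2 CPM in KSM with DR and 2.58 CPM in DR MEF, with Krt14 at 23.6 CPM and Trp63 at 0 in KSM with DR, and the 10 fibroblast markers summed to 1383 and 34280 CPM. Their part in the integrin values was not tested. Of 18 measured ligands and counter-receptors 2 were higher and 16 lower, with the fibronectin gene Fn1 at 689 CPM in KSM with DR and 17030 CPM in DR MEF and the E-cadherin gene Cdh1 at 32.9 CPM with KSM and without a count in DR MEF. Of 25 adhesome genes 1 was higher and 12 were lower.

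The study asked whether c-JunDN or Jdp2 can stand in for Oct4 in reprogramming. Few of the 34 genes differed between KSM with Oct4, c-JunDN or Jdp2 and KSM with DR, the 1 library that these 3 comparisons share. All 22 members measured with Oct4 reached 5 CPM in both libraries, and 22 of the 24 measured with c-JunDN and 22 of the 23 with Jdp2 did. With Oct4 2 of 22 measured members were higher and 2 lower, where 4.79% of all measured genes were higher and 6.85% lower. Sdc3 stood at 10.9 CPM in KSM with Oct4 and 35.7 CPM in KSM with DR (3.27-fold lower, 2.2 to 4.97), and Itga5 at 66.9 and 143 CPM (2.14-fold lower, 1.8 to 2.54). Itgb5 stood at 136.7 and 65.7 CPM (2.08-fold, 1.74 to 2.5) and Itga4 at 31.5 and 15.2 CPM (2.07-fold, 1.41 to 3.08). These last 2 lie at the threshold: with median-of-ratios scaling, and on the TPM scale, no member was higher and 3 were lower. Of 24 adhesome genes none was higher and 4 were lower, and of 17 ligands and counter-receptors 2 were higher and 8 lower, with Thbs1 at 36.6 CPM in KSM with Oct4 and 176.7 CPM in KSM with DR.

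With c-JunDN 2 of 24 measured members were higher and 1 lower than in KSM with DR, where 1.70% of all measured genes were higher and 1.73% lower. Itga9 had 23 counts in KSM with c-JunDN and 1 in KSM with DR (19.3-fold, 3.14 to 795.8), and Itga1 had 32 and 6 counts (4.48-fold, 1.85 to 13.1). Both higher members reached 5 CPM only with c-JunDN, so they had to differ. Itgb4 stood at 81.8 and 209.1 CPM (2.56-fold lower, 2.19 to 2.99). In TPM Itgb4 alone was called, and Itga1 and Itga9 were under 5 TPM.

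With Jdp2 2 of 23 measured members were higher than in KSM with DR and none lower, where 3.17% of all measured genes were higher and 1.32% lower. Itga1 had 17 counts in KSM with Jdp2 and 6 in KSM with DR, and the interval of its 2.62-fold ratio, 0.987 to 8.12, includes 1. It reached 5 CPM only with Jdp2, so it had to differ. Itga4 stood at 31.5 and 15.2 CPM (2.07-fold, 1.4 to 3.12), and neither was called in TPM. None of 24 adhesome genes was called with c-JunDN or with Jdp2. Ligands and counter-receptors showed 2 higher and 1 lower of 18 with c-JunDN, and 4 higher and none lower of 16 with Jdp2.

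Within KSM the leading alpha gene per length was Itga6 with Oct4 (41.9 TPM) and with DR (80.3 TPM), and Itga5 with c-JunDN (70.7 TPM) and Jdp2 (82.8 TPM). Itgb1 stayed between 482.8 and 635.4 CPM, and Ilk and Ptk2 between 87.5 and 115 CPM, in all 4 KSM libraries.

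**Figure D5:**
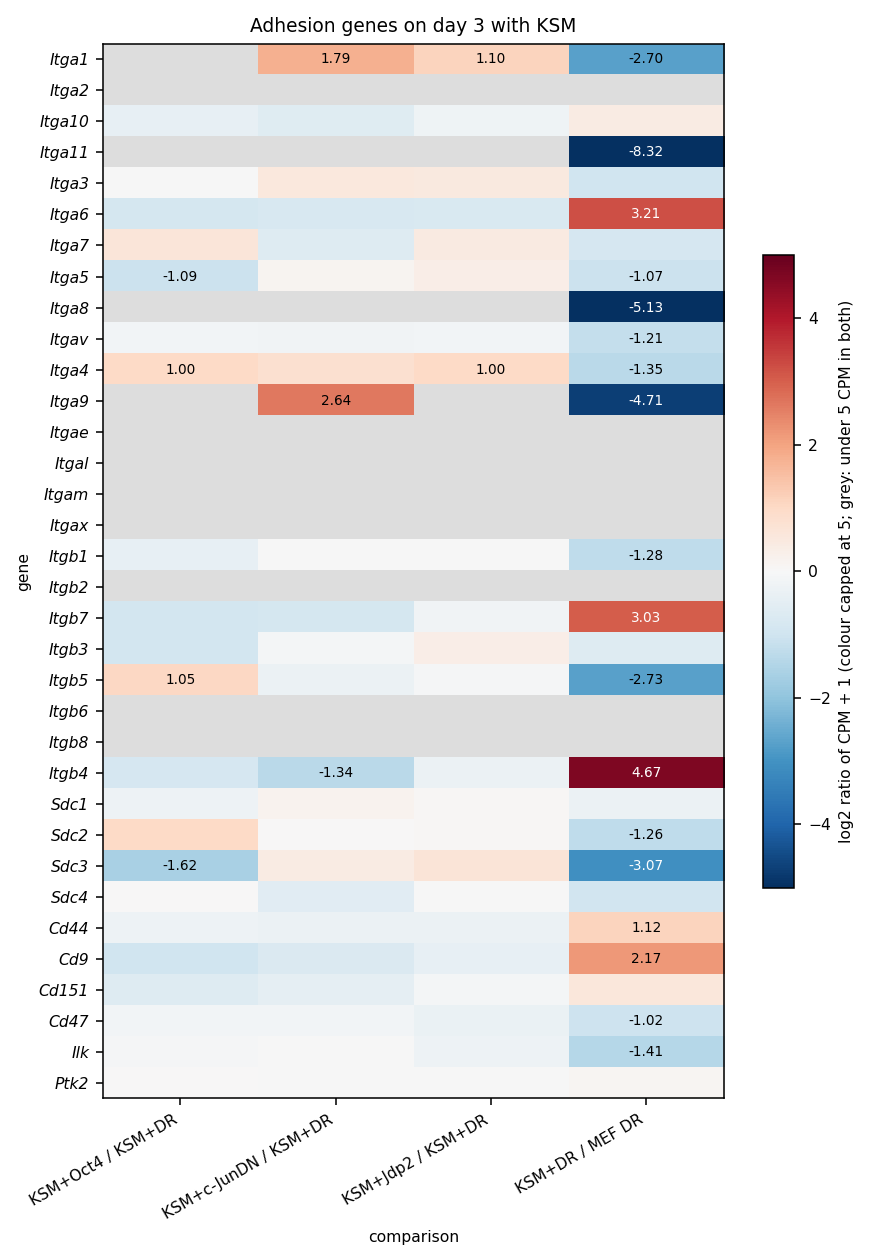
Log2 ratio of CPM plus 1 for each adhesion gene on day 3 with KSM plus Oct4, c-JunDN or Jdp2, each over the same KSM library with DR, and for KSM with DR over DR MEF, with numbers printed where the ratio passes 2-fold and grey where both libraries are under 5 CPM. The first 3 columns are mostly pale, and the last holds deep blue for Itga11, Itga8 and Itga9 and deep red for Itgb4.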

How the data were processed

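Per the submitters' processing notes, RNA reads were quantified with RSEM 1.1.21 on mm9; the aligner is not given in the sources used here. RNA was Trizol-extracted and made into TruSeq libraries, per the labels' protocols. The authors deposited RSEM expected counts per gene, rounded here, and a fraction of transcripts that sums to 1, scaled here to TPM. For the MEF Oct4 library they deposited expected counts, TPM and FPKM on Ensembl genes, matched here to RefSeq names through symbols and synonyms; FPKM was not used.

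Counts were scaled by TMM (edgeR 4.0.16, R 4.3.3). Log2 ratios use CPM plus 1, and intervals are exact conditional binomial (SciPy 1.17.1). The ratio step was tested on simulated data. No 2 libraries held identical values. Peak lists were not used, since no annotation of their build was at hand, and the input was not analysed here.

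All members past 2-fold are named, and the 6 largest differences per comparison have both values and the interval. The 3 lists of other genes name at most the 3 largest, apart from Fn1 in induced over uninduced ESC, which was added to them. Members and lists were chosen with earlier results of these data known. Alternatives were other scalings, filters, pseudocount and controls.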

Additional observations from a re-analysis of the deposited data

Results flagged for a closer look

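Itga3, Itga8 and Cd47 passed 2-fold in opposite directions when c-Jun was raised in ESC and in MEF. The log2 ratio of Itga3 was 3.04 in ESC and -2.63 in MEF, a difference of 5.67. That of Itga8 was 4.46 in ESC and -3.90 in MEF, a difference of 8.36. That of Cd47 was 1.56 in ESC and -1.71 in MEF, a difference of 3.26. Itga4 did so for Oct4, with 1.00 over DR with KSM and -1.53 over DR in MEF, a difference of 2.53, and its KSM value lies at the threshold. On the TPM scale its log2 ratio over DR in MEF was -0.93, within 2-fold. With 1 library per group none of these differences was tested.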

How the results depend on the processing

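No paired analysis was possible because each group has 1 library. Total-count and median-of-ratios scaling shift all genes of a comparison by less than 2-fold, so neither could turn a ratio called at 2-fold. None of 143 called ratios turned direction under total-count scaling, median-of-ratios scaling or the TPM scale, and 31, 11 and 34 of them moved beyond their counting interval. The count of called members stayed within 1.5 times in 12, 12 and 11 of 13 comparisons under these scalings, in 12 without a low filter, in 12 at 10 CPM, in 13 with a pseudocount of 0.5 and in 12 where the interval had to exclude 1. The exceptions were c-JunDN with KSM, at 1 on the TPM scale against 3; DR against WT MEF, at 8 with total counts against 14; and Jdp2 with KSM against 2, at 1 with median-of-ratios scaling, 0 on the TPM scale, 5 with no filter, 1 at 10 CPM and 1 with the interval. With WT controls the count was 14 against 22 for induced c-Jun in ESC, 8 against 3 for c-JunDN and 17 against 8 for Jdp2 in MEF. The cause was not tested. The median log2 ratio of all genes moved by over 0.1 in 6 comparisons. It was 0.09 with total counts and 0.30 in TPM against -0.08 for induced over uninduced ESC, 0.20 in TPM against 0.01 for Oct4 over DR MEF, and 0.29 with total counts against -0.11 for DR over WT MEF. It was -0.01 with median-of-ratios scaling and -0.29 in TPM against -0.18 for uninduced over WT ESC, and 0.19 with total counts and -0.08 in TPM against 0.06 for KSM with DR over DR MEF. For WT MEF over WT ESC it was -0.52, -0.07 and -0.06 under the 3 scalings against -0.21. Depth limits the low genes: 3 counts are 0.907 to 1.61 CPM outside the WT libraries.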
